A study of Rattus norvegicus with 12 samples.

Results

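The MHC class II genes and the invariant chain were followed in cells dispersed from the rat cervix, with and without macrophages (Mφs). The members are 8 genes chosen by name: RT1-Da, RT1-Db1, RT1-Ba, RT1-Bb, RT1-DMa, RT1-DMb, Cd74 and Ciita. They were measured by 10 of the 30367 probes on the array, since RT1-Db1 and RT1-Bb had more than 1 probe each, and every probe is reported on its own. Adult female Sprague-Dawley rats were either non-pregnant (NP, in proestrus by vaginal smear) or on D21 after breeding, the day before birth was expected. Blood was flushed from all rats with saline, and the trimmed cervix was minced, dispersed with collagenase B and DNAase, and filtered. In the whole cervix groups these cells were frozen directly. In the Mφ-depleted groups, cells from other rats were incubated with the ED1 antibody and magnetic beads, and the unbound cells were kept. The whole cervix cells did not pass through the antibody and bead steps, so removal of Mφs and handling cannot be told apart. There were 12 rats in 4 groups, 3 rats in each, with 1 array for each rat.

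Class II molecules are pairs of an alpha and a beta chain that carry peptides from the endosome to the cell surface, where helper T cells read them. The chains are made together with the invariant chain, Cd74, which blocks the peptide groove and guides the complex to the endosome. There Cd74 is cut away, and the DM pair, RT1-DMa and RT1-DMb, exchanges its last fragment for other peptides. RT1-Da and RT1-Db1 encode the rat counterparts of the human DR chains, and RT1-Ba and RT1-Bb those of the DQ chains. Ciita, the class II transactivator, binds no DNA itself and acts through the RFX and NF-Y factors that sit on the X and Y boxes of class II promoters. Dendritic cells, B cells and many Mφs carry class II, and the class II genes differ between alleles more than nearly any other genes.

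The RT1-Db1 and RT1-Bb probes are shown because probes of 1 gene can be read against each other only with their sequence in view. All are 60 bases long and are given 5′ to 3′ from the array files, with positions in rn4. The first probe of each gene, A_64_P130578 and A_64_P043911, holds at least 1 forward reading frame without a stop codon and is printed whole. The other probe of each gene, A_64_P134927 and A_44_P552452, has no such frame, and its first 30 bases are printed. Exons and untranslated regions of rn4 were not used here.
RT1-Db1 A_64_P130578, chr20:4672665-4672724, minus strand: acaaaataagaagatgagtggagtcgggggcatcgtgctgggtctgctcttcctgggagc
RT1-Db1 A_64_P134927, chr20:4671516-4671575, minus strand: ttcaagcagaagaaataccattcatgcata
RT1-Bb A_64_P043911, chr20:4732187-4732246, minus strand: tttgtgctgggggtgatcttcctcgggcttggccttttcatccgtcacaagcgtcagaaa
RT1-Bb A_44_P552452, chr20:4730533-4730583, minus strand: cagctgtgacagttgtgaaataccctagct

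The last span covers 51 bases of the genome for a probe of 60. The remaining probes lie at chr20:4641104-4641163 on the plus strand (RT1-Da), chr20:4700973-4701032 on the plus strand (RT1-Ba), chr20:4844372-4844431 on the minus strand (RT1-DMa) and chr20:4830313-4830372 on the minus strand (RT1-DMb). The Cd74 probe lies outside that cluster at chr18:56765468-56765527 on the plus strand, and the Ciita probe at chr10:5087176-5087235 on the minus strand.

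The promoters are shown because class II promoters are known for the X and Y boxes. They come from RefSeq in the GRCr8 build, which held a promoter for 6 of the 8 genes, RT1-Da, RT1-Db1, RT1-Ba, RT1-Bb, RT1-DMa and Cd74. Each window is printed 5′ to 3′ on the strand of the gene and ends 11 bases before the start site. Capitals mark the X box core AGNAAC and the Y box core ATTGG, which reads CCAAT on the other strand, and none of the marked motifs overlap.
RT1-Da, chr20:4515285-4515404: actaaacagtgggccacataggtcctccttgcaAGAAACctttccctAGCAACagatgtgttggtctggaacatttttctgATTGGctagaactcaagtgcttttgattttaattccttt
RT1-Db1, chr20:4560173-4560292: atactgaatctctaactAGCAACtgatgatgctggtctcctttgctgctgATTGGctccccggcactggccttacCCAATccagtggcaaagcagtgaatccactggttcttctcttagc
RT1-Ba, chr20:4576927-4577046: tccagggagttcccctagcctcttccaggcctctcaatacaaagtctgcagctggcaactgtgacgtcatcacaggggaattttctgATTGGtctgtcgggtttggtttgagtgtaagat
RT1-Bb, chr20:4604129-4604248: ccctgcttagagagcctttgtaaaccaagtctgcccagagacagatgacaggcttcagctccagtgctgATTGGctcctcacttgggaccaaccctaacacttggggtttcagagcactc
RT1-DMa, chr20:4712346-4712465: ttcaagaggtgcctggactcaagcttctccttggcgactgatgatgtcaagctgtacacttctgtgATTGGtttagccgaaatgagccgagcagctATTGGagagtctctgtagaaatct
Cd74, chr18:56527006-56527195: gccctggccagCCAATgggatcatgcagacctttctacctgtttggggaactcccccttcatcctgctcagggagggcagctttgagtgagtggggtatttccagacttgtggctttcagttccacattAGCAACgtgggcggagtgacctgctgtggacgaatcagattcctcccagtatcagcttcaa

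Over the full promoters of 300 bases, ATTGG on either strand was found in 6 of the 6 genes and in 37.5% of all 33469 promoters in the table. AGNAAC on either strand was found in 4 of the 6 genes and in 48.6% of all promoters. The pair in the order of a class II promoter, AGNAAC followed on the same strand by ATTGG at 20 to 45 bases, was found in RT1-Da and RT1-Db1 and in 1.52% of all promoters. These are matches of letters and not measured binding.

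Each value below is the log2 of the probe's intensity over the 75th percentile of its own array, so that 0 is that percentile and a difference of 1 is a change of 2-fold. Levels of different probes are not comparable, since probes differ in brightness for the same RNA. The scanner software rated 44.9% to 61.7% of probes as well above background, and the arrays came from 4 slides and 3 scan days. Of the 10 member probes, 2 were not well above background on any array, those of RT1-Ba and Ciita, and none was saturated. Testing required a signal well above background in every rat of 1 or more of the groups compared, which held for 7 member probes of 6 genes in each comparison. Values are listed in the order of rats 8, 9 and 10 for NP whole cervix, rats 5, 6 and 7 for D21 whole cervix, rats 5, 6 and 7 for NP Mφ-depleted cervix, and rats 1, 2 and 4 for D21 Mφ-depleted cervix. The same number in different groups does not stand for the same rat.

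RT1-Da, the DR-like alpha chain, was at 3.90, 3.80 and 4.27 in NP whole cervix and at 2.79, 3.03 and 2.75 in D21 whole cervix. In Mφ-depleted cervix it was at -0.43, -0.24 and -1.06 in NP rats and at -1.90, -1.14 and -2.51 in D21 rats. The 4 groups did not overlap, and they ran from NP whole through D21 whole and NP Mφ-depleted down to D21 Mφ-depleted cervix. RT1-Db1, the DR-like beta chain, was by probe A_64_P130578 at 3.42, 3.36 and 3.68 in NP whole and at 2.85, 2.80 and 2.77 in D21 whole cervix. After removal of Mφs the same probe was at 0.03, 0.37 and -0.17 in NP rats and at -2.09, -0.75 and -2.12 in D21 rats. Again no group overlapped another, and D21 rat 2 stood highest of the D21 Mφ-depleted rats. Probe A_64_P134927 of RT1-Db1 was at 1.47, 1.41 and 1.41 in NP whole and at 0.30, 0.76 and 0.16 in D21 whole cervix. It was at -2.50, -1.19 and -2.37 in NP and at -3.41, -2.29 and -3.54 in D21 Mφ-depleted cervix. Here the order of the group means was the same as for A_64_P130578, with the Mφ-depleted groups of NP and D21 rats overlapping.

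RT1-Bb, the DQ-like beta chain, was by probe A_64_P043911 at 2.50, 2.48 and 3.16 in NP whole and at 2.40, 2.15 and 2.20 in D21 whole cervix. It was at -1.19, -1.33 and -1.97 in NP and at -3.15, -2.34 and -3.23 in D21 Mφ-depleted cervix, where D21 rat 4 was not well above background. The groups did not overlap, although the lowest NP whole rat lay just above the highest D21 whole rat. The other probe of RT1-Bb, A_44_P552452, split the rats within groups. It was at 1.63 and 1.82 in NP whole rats 8 and 9 and at -5.83 in rat 10, and at 1.29 in D21 whole rat 6 against -5.79 and -6.04 in rats 5 and 7. In Mφ-depleted cervix it was at -7.61 in NP rat 5 against -1.78 and -2.11 in rats 6 and 7, and between -4.16 and -2.85 in the D21 rats, where rat 4 was not well above background. The 4 rats below -5 were not well above background either, with processed intensities of 4.64 to 14.3 units, whereas rats 8, 9 and 6 of the whole cervix groups had 959, 1795 and 1589 units. Thus NP whole rat 10, the highest rat of its group by A_64_P043911, was not well above background by A_44_P552452.

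The spread of A_44_P552452 was ranked among 18616 of the 30367 probes, a set that left out those of RT1-Ba and Ciita. From the lowest to the highest rat it covered 7.65 log2 units in NP whole and 7.33 in D21 whole cervix, and by the smaller of these ranges it ranked 1st of 18616 probes, the next having 5.55. A_64_P043911 covered 0.68 and 0.25 in the same rats. The probe was not tested, since no group had it well above background on 3 arrays, and the class II alleles of the rats were not measured. RT1-Ba, the DQ-like alpha chain, gave no signal above background in any rat, with values from -7.51 to -5.20, so that nothing is known here of the level of this chain.

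RT1-DMa, the alpha chain of the peptide exchanger, was at 2.14, 1.37 and 2.66 in NP whole and at 1.59, 1.65 and 1.14 in D21 whole cervix. It was at -1.08, -1.41 and -1.78 in NP and at -1.23, -1.02 and -2.18 in D21 Mφ-depleted cervix. NP and D21 rats overlapped in both preparations, while whole and Mφ-depleted cervix were apart. RT1-DMb, its partner, was at 1.78, 0.84 and 2.13 in NP whole and at 0.53, 1.04 and 0.35 in D21 whole cervix. It was at -2.93, -2.52 and -2.53 in NP and at -3.62, -3.17 and -4.96 in D21 Mφ-depleted cervix, with D21 rat 4 not well above background. NP and D21 rats overlapped in whole cervix and were apart in Mφ-depleted cervix.

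Cd74, the invariant chain, was at 5.08, 4.99 and 5.21 in NP whole and at 4.44, 4.43 and 4.10 in D21 whole cervix. It was at 1.64, 2.21 and 1.53 in NP and at 0.15, 1.14 and -0.69 in D21 Mφ-depleted cervix. The groups did not overlap, and Cd74 stayed above the 75th percentile in 5 of the 6 Mφ-depleted arrays. Ciita, the transactivator, was not well above background in any rat, with values from -7.61 to -5.24, and no difference in it can be read from these arrays.

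**Figure D1:**
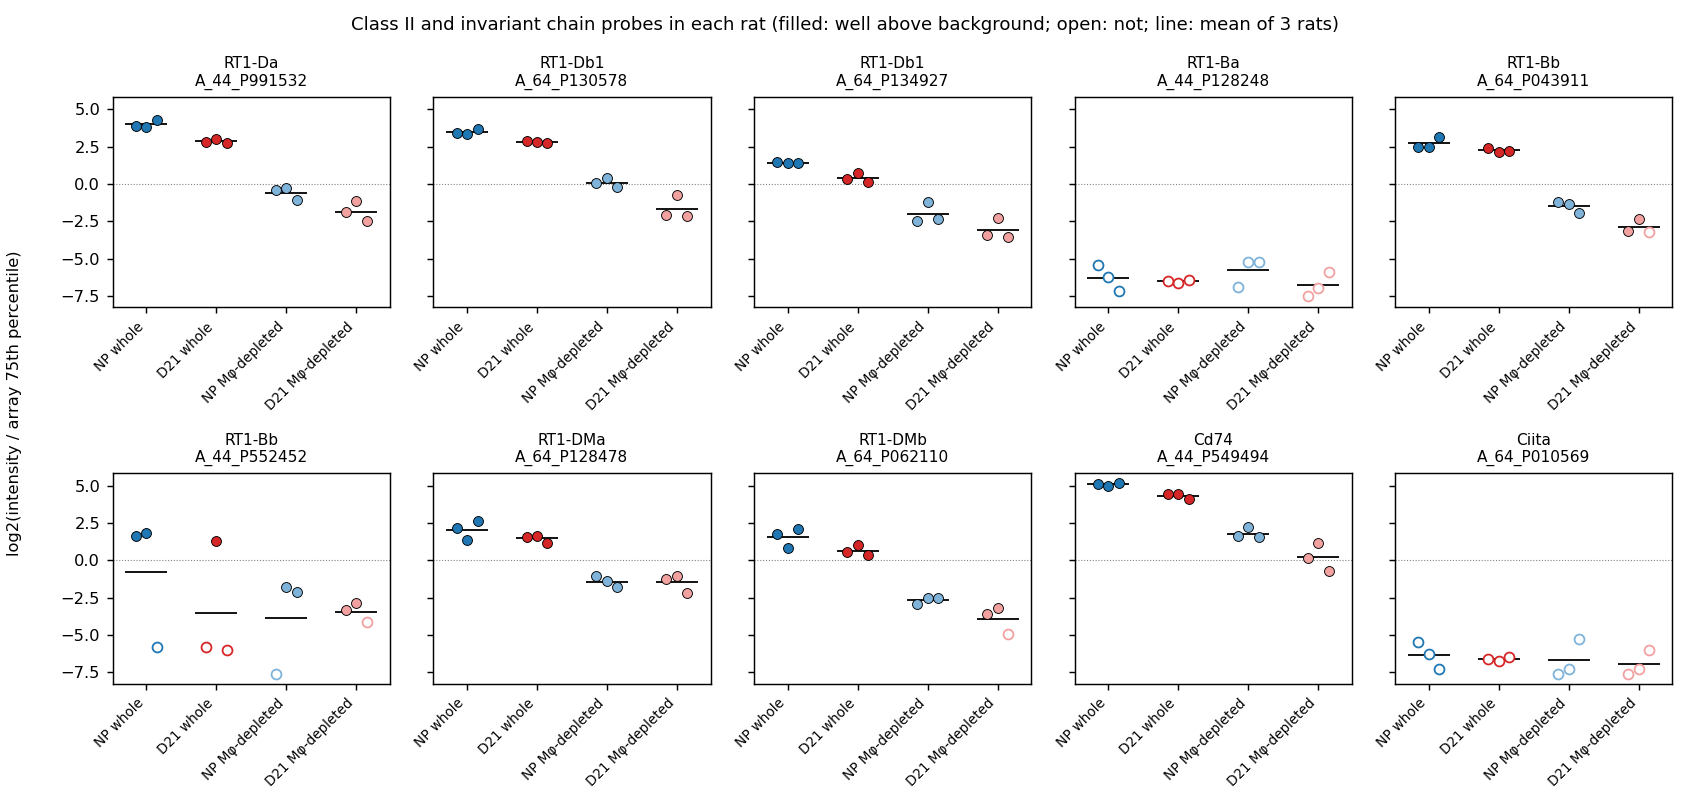
Level of the 10 member probes in each of the 12 rats, as log2 of the intensity over the 75th percentile of the array (vertical axis) by group (horizontal axis). Filled points were well above background, open points were not, and lines are means of 3 rats. The 7 probes tested sit highest in the whole cervix groups, A_44_P552452 of RT1-Bb splits within groups, and RT1-Ba and Ciita stay at background.

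The first question was what the class II genes do when Mφs are removed. In D21 rats all 7 probes tested had more signal in whole cervix than after Mφ removal, by 7.67-fold to 35.7-fold, and the groups did not overlap. The largest difference was that of RT1-Bb (A_64_P043911), at 2.25 ± 0.13 in whole and -2.91 ± 0.49 in Mφ-depleted cervix (SD, n = 3 each), a difference of 5.16 (SE 0.32, limma adjusted p = 7.51e-06), with D21 Mφ-depleted rat 4 not well above background. With normexp background correction it was 2.85, below RT1-Db1 by A_64_P130578 (3.46), Cd74 (3.37) and RT1-Da (3.05). RT1-Da differed by 4.70 (SE 0.34, 26-fold, limma adjusted p = 1.56e-05). Cd74 differed by 4.12 (SE 0.39, 17.4-fold, limma adjusted p = 1.00e-04). The smallest difference was that of RT1-DMa, 2.94 (SE 0.39, 7.67-fold, limma adjusted p = 7.24e-04), against 4.56 (SE 0.45) for its partner RT1-DMb, which was not well above background in D21 Mφ-depleted rat 4. The probes of RT1-Db1 gave 4.46 (SE 0.34, A_64_P130578) and 3.49 (SE 0.40, A_64_P134927).

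A probe was called where its limma p, adjusted over all probes tested, was under 0.05 and its change at least 2-fold. By this rule 7 of 7 member probes were called higher in whole D21 cervix, where 11.5% of the 16223 probes tested were called higher, and 22.6% had groups that did not overlap in this direction. The median difference of the 7 probes was 4.46, against -0.02 over all probes tested. In bulk RNA, fewer cells of a type and less RNA in each cell cannot be told apart. All D21 whole arrays lay on a slide that held no Mφ-depleted array, and with the slide as a fixed block the count of calls was 4 and the median 4.36. In that fit the D21 whole arrays were tied to the Mφ-depleted ones only through NP whole rat 10, which shared their slide. The probes no longer called were A_64_P134927 of RT1-Db1, RT1-DMa and RT1-DMb, with differences of 3.77, 2.56 and 4.22 in that fit. On the 1 scan day that both groups shared, the median over 3 whole and 1 Mφ-depleted array was 5.01. That Mφ-depleted array was rat 4, the lowest of its group in each of the 7 probes. Leaving out rat 4 from the main fit gave a median of 4.04 over the same probes. Normexp background correction gave a median of 2.85 with 7 calls.

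In NP rats the same comparison gave differences of 3.30 to 4.57. RT1-Da was at 3.99 ± 0.25 in whole and -0.58 ± 0.43 in Mφ-depleted cervix, a difference of 4.57 (SE 0.34, 23.7-fold, limma adjusted p = 4.72e-06). RT1-DMb differed by 4.24 (SE 0.45, 18.9-fold) and RT1-Bb (A_64_P043911) by 4.21 (SE 0.31, 18.5-fold). RT1-DMa followed at 3.48 (SE 0.38, 11.2-fold), and the RT1-Db1 probes gave 3.45 (A_64_P134927) and 3.41 (A_64_P130578). Cd74 had the smallest difference, 3.30 (SE 0.39, 9.87-fold, limma adjusted p = 9.21e-05). All 7 probes were called higher, where 14.5% of the 15119 probes tested were, and none of the groups overlapped, as in 23.2% of all probes in this direction. The median was 3.48 over the 7 probes and -0.02 over all probes. Within slide 3, with 2 whole and 1 Mφ-depleted array, the median was 3.81, and on scan day 3 it was 3.84.

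**Figure D2:**
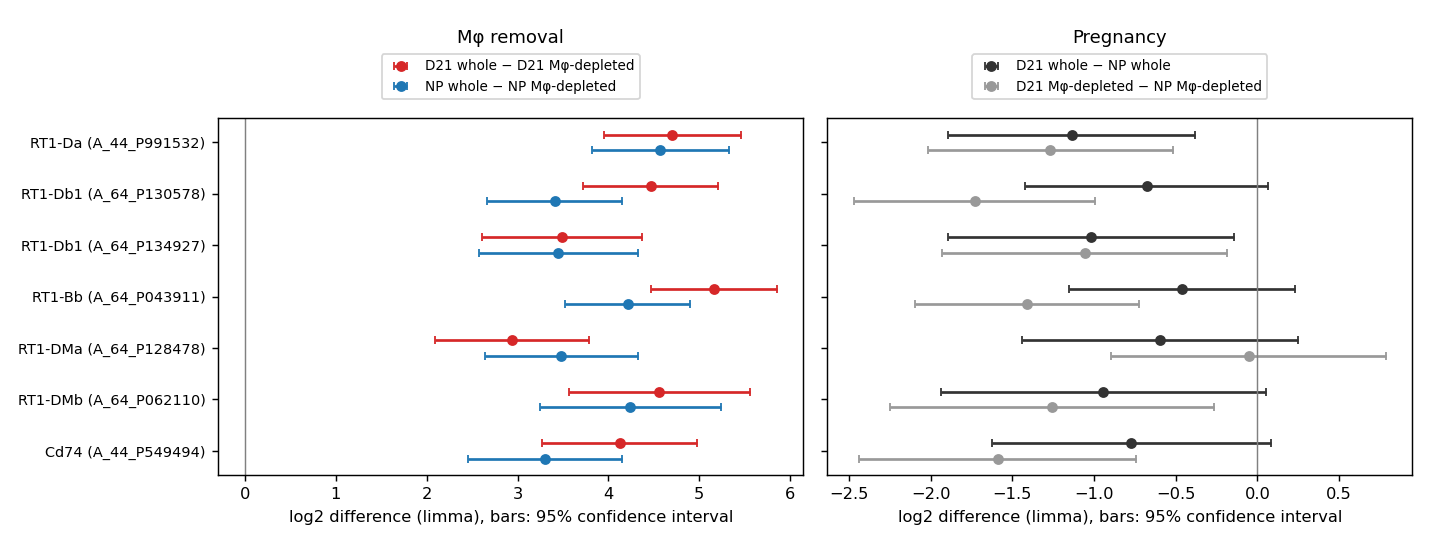
Differences in the 7 member probes tested, in log2 units with 95% confidence intervals from limma. The left panel shows whole minus Mφ-depleted cervix in D21 and NP rats, all at 2.94 or higher, and the right panel shows D21 minus NP rats in whole and in Mφ-depleted cervix, all below 0 (with normexp, 3 of those in Mφ-depleted cervix lay above 0).

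Markers of several cell types also differed between whole and Mφ-depleted cervix, some of them in the other direction. Of the 15 Mφ markers, 13 of 15 tested were called higher in whole D21 cervix and 11 of 13 tested in whole NP cervix, with median differences of 5.28 and 6.12. Of all probes tested, 11.5% and 14.5% were called higher. Only 4 of the 15 markers were well above background on all 6 Mφ-depleted arrays, against 13 on all 6 whole cervix arrays. These medians thus rest partly on values near background and were not set against those of the class II probes. The summed level of the 15 markers, in multiples of the 75th percentile, was 85.9 to 98.4 in D21 whole and 11 to 15.6 in D21 Mφ-depleted rats, and 78.2 to 126 in NP whole and 5.00 to 15.3 in NP Mφ-depleted rats. The summed level of the 7 class II probes was 39.9 to 48.0 and 1.47 to 4.26 in D21 rats, and 68.7 to 91.3 and 5.17 to 8.16 in NP rats. Adgre1, a surface marker of mature Mφs, was not well above background in any Mφ-depleted rat. Whole cervix exceeded that level at least 36.6-fold in D21 rats and at least 39.6-fold in NP rats. Such bounds set the mean of the bright group against the dimmest signal well above background on each array of the other group. Cd68, the antigen of ED1, did not pass the test, with differences of -0.15 in D21 rats (limma adjusted p = 0.880) and 0.54 in NP rats (limma adjusted p = 0.532). These are RNA levels, not the protein that ED1 binds. The study checked the removal by flow cytometry before and after the bead step and reported that Mφs were depleted.

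Of the 12 dendritic cell markers on the array, 5 were tested, and 3 were called higher in whole cervix in D21 and in NP rats, with medians of 3.19 and 2.70. Only 1 of the 12 was well above background on all 6 Mφ-depleted arrays, against 5 on all 6 whole cervix arrays. These differences thus rest partly on values near background. Flt3 was not well above background in any Mφ-depleted rat, and whole cervix exceeded that level at least 1.97-fold in D21 and 3.19-fold in NP rats. Another 5 of the 12 markers (Ccr7, Cd209a, Irf4, Itgae and Xcr1) were not well above background in any rat. The summed levels of the 12 markers overlapped between whole and Mφ-depleted rats, at 3.55 to 5.09 against 1.43 to 5.60 in D21 rats and 4.80 to 6.07 against 2.18 to 7.61 in NP rats. The 7.61 came from NP Mφ-depleted rat 7, where 1 of the 12 markers was well above background. The mean log2 levels of the 12 markers did not overlap, at -4.02 to -3.72 against -5.43 to -4.92 in D21 rats and -3.73 to -3.27 against -5.30 to -4.14 in NP rats. The B cell gene Ms4a1 was at background throughout, and 0 of the 2 B cell markers tested in D21 rats and 0 of the 1 tested in NP rats were called by limma. For the counts in this paragraph, 11.5% of all probes tested were called higher and 7.65% lower in D21 whole cervix. In NP whole cervix 14.5% were called higher and 11.4% lower. Fibroblast markers were higher in whole cervix in 3 of 10 in D21 rats and 9 of 10 in NP rats, and smooth muscle markers in 6 of 9 and 9 of 9. T and NK cell markers were higher in whole cervix in 2 of 4 tested in D21 rats and 1 of 1 in NP rats. Of the 10 T and NK cell markers, 0 were well above background on all 6 Mφ-depleted arrays. Endothelial markers were higher in whole cervix in 4 of 10 in D21 rats and in 4 of 9 in NP rats, with 1 lower in NP rats. Epithelial markers were lower in whole cervix in 4 of 10, with 1 higher, in D21 rats and in 7 of 10 in NP rats. Immediate-early genes, which rise quickly in handled cells, were lower in whole cervix in 8 of 8 in both, with medians of -2.66 and -3.02, and 0 of 8 housekeeping genes were called by limma in either. The part of any of these in the class II differences was not tested.

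**Figure D3:**
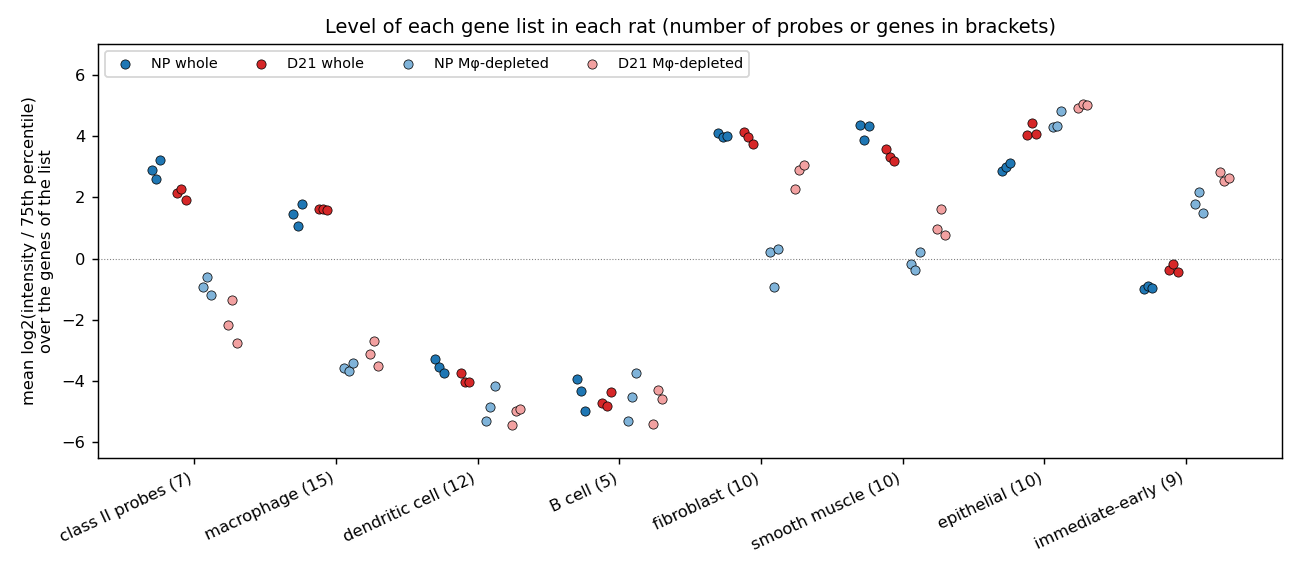
Mean log2 level of the 7 class II probes and of 7 marker lists in each of the 12 rats (vertical axis, 0 is the array's 75th percentile), by list (horizontal axis, number of genes in brackets). The class II, Mφ, dendritic cell, fibroblast and smooth muscle means sit lower in all 6 Mφ-depleted rats than in any whole cervix rat, and fibroblast genes sit lower in NP than in D21 Mφ-depleted rats.

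The next question was whether class II expression in whole cervix differed between D21 and NP rats. Estimates for all 7 probes were lower in D21 rats, with differences from -1.14 to -0.46, and 0 of 7 were called by limma, where 1.6% of the 15983 probes tested were called lower. RT1-Da had the largest difference, -1.14 (SE 0.34, 95% confidence interval -1.89 to -0.38), with a limma adjusted p of 0.0794. The second RT1-Db1 probe, A_64_P134927, gave -1.02 (limma adjusted p = 0.161), and the first, A_64_P130578, gave -0.68 (limma adjusted p = 0.265). RT1-DMb gave -0.94 and Cd74 gave -0.77, with intervals of -1.94 to 0.05 and -1.62 to 0.08. RT1-DMa gave -0.60 and RT1-Bb (A_64_P043911) gave -0.46, with intervals of -1.44 to 0.25 and -1.16 to 0.23. Without adjustment, 2 of the 7 probes had a limma p under 0.05, RT1-Da and A_64_P134927, but the share of all probes at that level was not counted. RT1-Da alone passed the study's threshold of p under 0.01 and 2-fold, by limma and by the methods' t-test. By limma, 8.51% of all probes passed it.

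In 5 of the 7 probes no D21 rat reached the lowest NP rat, the exceptions being RT1-DMa and RT1-DMb, and 23.5% of all probes tested had groups apart in this direction. The median of the 7 probes was -0.77, against -0.06 over all probes. Within slide 4, with 3 D21 arrays and 1 NP array, the median was -1.0. Array weights gave 3 calls, and limma on these 6 arrays alone gave 2, but the share of all probes called was not counted under these settings. Of the 15 Mφ markers, 1 was called higher in D21 rats, Cd163, a scavenger receptor, by 3.61, and the median of the list was 0.25. Of the 10 epithelial markers, 7 were called higher in D21 rats, and 3.84% of all probes tested were. Smooth muscle markers had a median of -0.84 with 1 of 9 called lower, and their summed level was 292 to 398 in D21 and 435 to 683 in NP rats. Of the T and NK cell markers, 1 of 4 was called higher and 1 lower, and their summed level was 0.771 to 1.01 in D21 and 1.16 to 1.49 in NP rats. Whether these moved the class II values was not tested.

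In Mφ-depleted cervix, where the cells left after ED1 selection were compared, 3 of the 7 probes were called lower in D21 than in NP rats, and 0.832% of the 15144 probes tested were called lower. RT1-Db1 by A_64_P130578 was at -1.65 ± 0.78 in the D21 rats and at 0.08 ± 0.27 in those of the NP group (SD, n = 3 each), a difference of -1.73 (SE 0.34, 3.32-fold, limma adjusted p = 0.0149). Cd74 was at 0.20 ± 0.92 and 1.79 ± 0.37, a difference of -1.59 (SE 0.39, 3.01-fold, limma adjusted p = 0.0431). RT1-Bb (A_64_P043911) differed by -1.41 (SE 0.31, 2.66-fold, limma adjusted p = 0.0285), with D21 rat 4 not well above background. RT1-Da gave -1.27 (limma adjusted p = 0.0636), RT1-DMb -1.26 (limma adjusted p = 0.144) and the RT1-Db1 probe A_64_P134927 -1.06 (limma adjusted p = 0.157). For RT1-DMb too, D21 rat 4 was not well above background. RT1-DMa gave -0.05, with an interval of -0.90 to 0.79.

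The groups did not overlap in 5 of the 7 probes, the exceptions being A_64_P134927 and RT1-DMa, and 7.36% of all probes tested were apart in this direction. Among the 5, RT1-Bb (A_64_P043911) and RT1-DMb were not well above background in D21 Mφ-depleted rat 4. The median difference was -1.27, against 0.00 over all probes. The calls depended on single rats. Leaving out NP Mφ-depleted rat 5, NP Mφ-depleted rat 6 or D21 Mφ-depleted rat 1 gave 0 calls by limma, with medians of -1.30, -1.19 and -1.29 over the same 7 probes, and leaving out D21 Mφ-depleted rat 2 gave 4. The count was also 0 with normexp background correction, where the median was -0.13 and A_64_P134927, RT1-DMa and RT1-DMb turned sign, and by the methods' t-test. Cd74 differed by -0.78 on scan day 1, with 1 D21 and 2 NP arrays, and by -2.21 on scan day 3, with 1 array each. In the same comparison 8 of 10 fibroblast markers were called higher in D21 rats, against 3.27% of all probes, with a median of 2.90, and 0 of the 6 Mφ markers tested were called by limma, with a median of 0.87. Their part in the class II differences was not tested.

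The difference between D21 and NP rats in the effect of removal was tested as an interaction. It was called for 0 of the 7 probes by limma, and for 2.34% of the 16557 probes tested, on the adjusted p with no limit on the fold. No probe had an unadjusted p under 0.05 either. Estimates ran from -0.54 for RT1-DMa to 1.05 for RT1-Db1 (A_64_P130578), where a positive value is a larger difference with removal in D21 rats. The interval of the latter was -0.01 to 2.11, and that of RT1-DMa was -1.75 to 0.66.

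Other genes of the class II pathway were taken from a list of 44, of which 42 were on the array. Of the genes tested, 7 of 34 were called higher and 3 lower in D21 whole cervix than after removal, where 11.5% of all probes were called higher and 7.65% lower. In NP rats 11 of 32 were called higher and 3 lower, where 14.5% and 11.4% of all probes were. In the list of 11 lysosomal enzymes and their helpers, which cut antigen and Cd74, 4 were higher in D21 and 7 in NP rats. Ctss, the cathepsin that makes the late cuts in Cd74, was higher by 2.97 (limma adjusted p = 0.00344) in D21 and by 3.91 (limma adjusted p = 1.84e-04) in NP rats. Lgmn, an asparagine endopeptidase, was higher by 1.78 in D21 rats, and Cst3, a cathepsin inhibitor, by 1.93 in NP rats. Cd4, the coreceptor for class II on helper T cells, which rat Mφs also carry, was not well above background in any Mφ-depleted rat. The whole cervix of D21 rats had at least 29.8-fold more (means 0.22 and -6.19, limma adjusted p = 1.41e-06) and that of NP rats at least 15.2-fold more (means -0.49 and -5.90, limma adjusted p = 7.58e-07). Cd40, the co-stimulatory receptor, was higher by 2.90 (limma adjusted p = 0.0258) and Cd63, a lysosomal membrane protein, by 1.75 in NP rats. For Cd40, NP Mφ-depleted rat 7 was not well above background.

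Of the RFX subunits, which bind the X box with NF-Y beside them, none was called. Rfx5 differed by 0.81 in D21 rats (limma adjusted p = 0.481) and was not tested in NP rats. Rfxank differed by -0.12 and -0.06 and Rfxap by 0.64 and 0.91 in D21 and NP rats, and none of these passed. Irf8, a factor of myeloid and B cells, gave 0.44 and -1.42, also without passing. Irf1, an interferon response factor, was lower in whole cervix, with differences of -1.88 in D21 rats (limma adjusted p = 0.0215) and -1.70 in NP rats (limma adjusted p = 0.0198). Nfyc, a subunit of NF-Y, was higher by 1.41 in D21 rats (limma adjusted p = 0.0423). It was 1 of 10 listed transcription genes called higher there, and 0 of 9 tested were called higher in NP rats. The other NF-Y subunits listed, Nfya and Nfyb, were called in neither. Both genes listed as partners of Cd74, its ligand Mif and its signalling partner Cd44, were lower in whole cervix. The differences in D21 and NP rats were -1.25 and -1.30 for Mif, named here after its values were seen, and -1.39 and -1.82 for Cd44. Of the other class II genes, RT1-DOa and RT1-Ha were at background in all rats, as was Ifng, the main inducer of class II.

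The D21 count of 10 called in the pathway list depended on the settings. It was 3 without D21 Mφ-depleted rat 1 or D21 whole rat 7, 4 without D21 Mφ-depleted rat 2 or D21 whole rat 5 or 6, and 1 with the slide as a fixed block. Between D21 and NP rats, 0 of 34 pathway genes were called by limma in whole cervix, where 3.84% of all probes were called higher and 1.6% lower. In Mφ-depleted cervix 1 of 31 was called, Cd63, higher by 1.03 in D21 rats (limma adjusted p = 0.0445), where 3.27% of all probes were called higher.

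**Figure D4:**
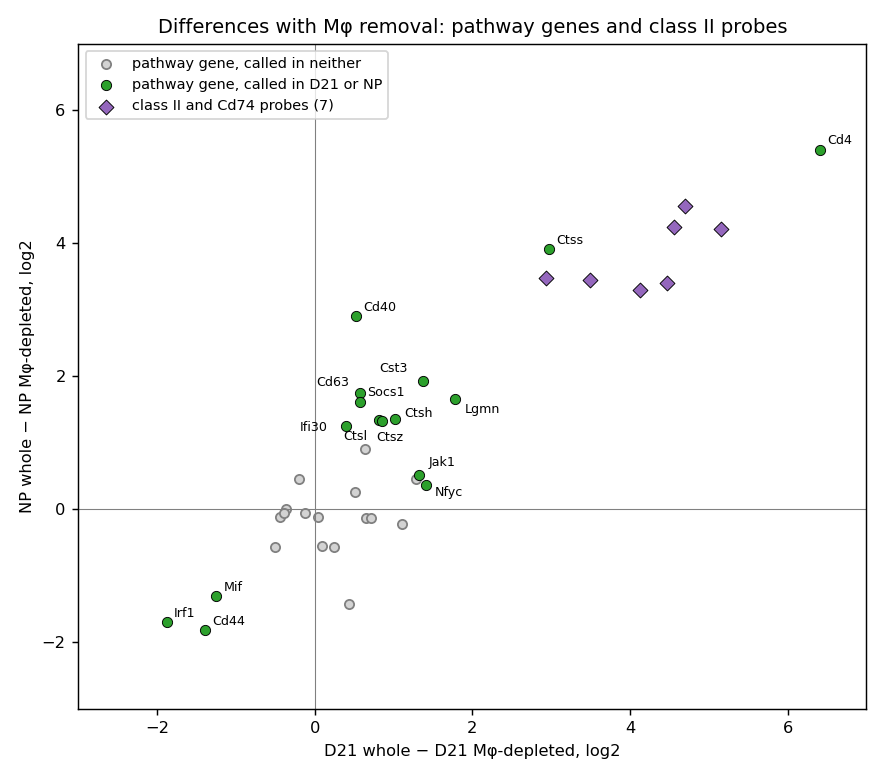
Difference between whole and Mφ-depleted cervix in NP rats (vertical axis, log2) against that in D21 rats (horizontal axis, log2) for the 32 pathway genes tested in both and the 7 class II and Cd74 probes. The 7 member probes lie at 2.94 or higher on both axes, as do Cd4 and Ctss, while Irf1, Cd44 and Mif lie below 0 on both. Cd4 was not well above background in Mφ-depleted cervix, so its place is a fitted value. Cd40 was not well above background in NP Mφ-depleted rat 7.

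The pattern of the members over the 12 rats was summarised by the mean of 6 probes, 1 for each gene above background, each centred on its own mean. The members lay at a root mean square difference of 0.27 (RT1-Db1), 0.28 (Cd74), 0.32 (RT1-Da and RT1-DMb), 0.37 (RT1-Bb) and 0.64 (RT1-DMa) log2 units from this profile. Among 16464 other probes, whose median was 2.22, genes near it included Cytip (0.40), Myo1f (0.49), Gpr183 (0.52), Synpo2 (0.54), Dok3 (0.54), Aif1 (0.57), Cd37 (0.59), Fcer1g (0.59) and Arhgap9 (0.61). RT1-DMa was thus farther from the profile than these genes, although it contributed to it. A_44_P552452 of RT1-Bb had no near neighbour, the closest of 18556 probes lying at 2.32 against a median of 3.12. No such ranking was made for Ciita, which was at background throughout.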

How the data were processed

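RNA from 12 cervices was read on 1-colour Agilent arrays with 30367 probes. The authors deposited each spot's processed intensity (Feature Extraction 9.5.3.1, background subtracted, not normalized between arrays) and a table of ratio values, which were found to be the intensity over the 75th percentile of its array. Spots of a probe were averaged, leaving out control spots and 294 to 648 outlier spots per array, log2 was taken, and each array was centred on its 75th percentile. Probes were named as in the array files. Comparisons were fitted with limma 3.58.1 in R 4.3.3 over all 12 arrays, with 4 group means and Benjamini-Hochberg adjustment over all probes tested, and the procedure was tested on simulated data. Welch's test, which the study used, appears as the methods' t-test. With 3 arrays for each group, their number limits the precision. Members and gene lists were chosen with earlier results of these data known. Pathway genes named are the called ones, up to 6 by size in a comparison, and regulators of class II transcription. Some items under these rules are not reported here. Python 3.11.15 with pandas 2.3.3, numpy 2.4.6 and matplotlib 3.10.9 was used for counts and plots. Alternatives covered the test, background correction, scaling, filter, array weights, batches and leaving out each rat.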

Additional observations from a re-analysis of the deposited data

Results flagged for a closer look

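The effect of removal differed between D21 and NP rats, by the limma interaction, for 7 of 10 fibroblast markers, 5 of 9 smooth muscle markers and 1 of 8 immediate-early genes tested, where 2.34% of all probes tested passed. Of the class II probes, 0 of 7 passed by limma. The median interaction was -3.21 for fibroblast markers and -2.69 for smooth muscle markers, a smaller difference with removal in D21 rats, and 0.32 for the class II probes.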

How the results depend on the processing

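The direction held under every alternative run for all 7 class II probes in the comparisons of whole with Mφ-depleted cervix and of D21 with NP whole cervix. The 7 calls in D21 rats became 4 with the slide as a block (median 4.36) and 0 by the methods' t-test after adjustment, and the 7 in NP rats became 4 by the latter. Without any 1 rat both counts were 7. The median of D21 rats (4.46) was 2.85 with normexp, 3.80 with no filter (10 probes) and 5.01 on scan day 3, and 3.86 to 4.91 leaving out 1 rat (3.86 without D21 Mφ-depleted rat 4, where A_44_P552452 was also tested, and 4.04 there over the same 7 probes). That of NP rats (3.48) was 4.01 with the slide and 4.02 with the scan day as a block, and 3.30 to 3.86 leaving out 1 rat. In whole cervix the 0 calls between D21 and NP rats became 1 at unadjusted p by limma and by the methods' t-test, 1 with the scan day as a block, 2 with these groups alone, and 3 with array weights. In Mφ-depleted cervix the 3 calls became 0 with the methods' t-test (adjusted or not), these groups alone, normexp, no filter or array weights, 1 with the scan day as a block, and 0 to 4 leaving out 1 rat. Its median (-1.27) was -0.13 with normexp and -1.63 to -0.94 leaving out 1 rat, over the same 7 probes. There the sign turned with normexp for A_64_P134927 (0.050), RT1-DMa (0.32) and RT1-DMb (0.31), and for RT1-DMa without NP rat 5 (0.12) or D21 rat 4, its values leaving out 1 rat being -0.28 to 0.30. The estimation of array weights stopped before it converged. Weights estimated gene by gene, added after seeing the data, gave 3 calls in whole cervix, 5 in Mφ-depleted cervix (RT1-DMa at 0.056) and 2 in the interaction, which had 0 otherwise. The sign of the interaction changed in at least 1 alternative for 4 of 7 probes. Leaving out A_44_P552452, also added then, changed no main value, since it was tested only with no filter or without D21 Mφ-depleted rat 4, NP Mφ-depleted rat 5 or NP whole rat 10. The pathway count in D21 rats (10) was 6 with these groups alone, 5 with the scan day, 1 with the slide as a block, 3 with normexp or no filter, 4 by the methods' t-test and 1 after adjustment, and 3 to 13 leaving out 1 rat. That in NP rats (14) was 9 with the slide as a block, 4 by the methods' t-test and 1 after adjustment. In whole cervix it was 1 between D21 and NP rats with quantile normalization, with either kind of array weights and without NP whole rat 9. Taking the percentile over probes detected on every array put the median of all probes at 0.17 (against -0.02) in the D21 comparison of whole with Mφ-depleted cervix and at -0.16 (against 0.00) between the Mφ-depleted groups. The share of all probes called was counted for the main fits only, so counts under the alternatives have no such share beside them. Other causes were not tested. No paired analysis was possible because the groups compared share no rat numbers.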
